A study of Mus musculus with 7 samples.

Results

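The serine/threonine protein phosphatase subunits are the genes whose symbols begin with Ppp, a class number and the letter c for a catalytic or r for a regulatory subunit. They were taken by symbol from a gene table that compares mouse embryonic stem cells before and after induction of the neuronal transcription factor NeuroD1, and 64 of its 21937 genes carried such a name. The symbol Ppp4r1l-ps, which ends in -ps, was left out. The cells were dox-inducible transgenic A2lox embryonic stem cells of 129/Ola background, grown first on feeder cells, which were removed before the experiment. The 2 uninduced libraries came from cells that received no doxycycline, and the 2 induced libraries from cells given doxycycline at 500 ng/ml for 48 h to switch on ectopic NeuroD1. All 4 libraries carry the transgene, and the drug without a transgene was not measured in the samples used here, so drug and NeuroD1 effects cannot be told apart. The ectopic factor is driven by a doxycycline-responsive promoter and not by the gene's own promoter.

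Values are the authors' group means in normalized reads, with no value per library used here and so no spread, and the adjusted p-values are those of the authors' deposited table. Whether the 2 libraries of each group were separate cultures is not stated in the labels, and the p-values may then reflect technical spread alone. A gene is said to have risen or fallen where the authors' adjusted p was at most 0.05. Single members were chosen by symbol, but the family as a whole was selected on the uninduced and induced group means of this same contrast, so its counts and p-values describe the members and support nothing beyond them. In the authors' deposited table Neurod1 went from 438 to 4371. Of 5 stem cell markers 4 fell, and all 5 neuronal markers rose, their summed mean going from 1634 to 14660. The feeder fibroblast markers summed to 2461 and 2999.9, with 1 of 6 risen (Col3a1) and 1 fallen (Thy1), and none of them was at 0. Heart and skeletal muscle markers summed to 229 and 289.9, and 5 glial markers to 303 and 549.9, with the astrocyte gene S100b at 0 and 0.477. The part of these other cell types in the results below was not tested, and in bulk RNA fewer cells of a type and less RNA per cell cannot be told apart.

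Protein phosphatases remove phosphate from serine and threonine and so oppose protein kinases. A small number of catalytic subunits serves a large number of substrates, because regulatory subunits carry the catalytic subunit to a place or substrate, or inhibit it. PP1 binds many of its regulators through short docking motifs, and PP2A is a trimer of scaffold, catalytic and variable B subunits. PP3, or calcineurin, is switched on by calcium through calmodulin and its own B subunit. In neurons these enzymes act on synaptic receptors, on the actin and microtubule cytoskeleton and on transcription factors such as NFAT, which calcineurin sends to the nucleus.

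Across the family the changes were small and more often upward than downward. Of the 62 members with a p-value 25 rose, 6 fell and 31 did not pass, where 35.5% of all genes with a p-value were called, 19.1% higher and 16.4% lower. The other members, the muscle glycogen-targeting subunit gene Ppp1r3a and the PP2A gene Ppp2r3d, were listed at 0 in both groups. With a pseudocount of 1, the median log2 change of the 57 members whose higher group mean was at least 10 was 0.22, with quartiles of -0.04 and 0.39. The same median over all 14691 genes at that level was 0.0013, with quartiles of -0.34 and 0.35. Of those 57 members 47, or 82.5%, stayed within 1.5-fold on that scale, where 68.6% of all genes did. A change of 2-fold or more was seen in 4 members, or 7.02%, and in 16.6% of all genes, and all 4 changes were rises, in Ppp1r14a, Ppp2r2b, Ppp1r3c and Ppp1r3d. The members lie high in the read range, 31 of the 57 having a mean of at least 1000. Of those 31 members 16 rose and 4 fell, where 27.8% of all genes at that level were called higher and 27.6% lower. Ppp1r3c and Ppp2r2b reached the minimum of 10 through the induced group alone, so they could enter these counts only as higher genes.

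The stretches before the transcription start are shown for the member with the largest rise (Ppp1r14a), the spine scaffold gene Ppp1r9b, the calcineurin gene Ppp3cb and the member with the lowest ratio among those that fell (Ppp1r13l). Each is the 250 bases before the start in RefSeq, build GRCm38.p6, written 5′ to 3′ on the gene's strand, with matches to the E-box pattern CANNTG, the kind of site that basic helix-loop-helix factors bind, in capitals.
Ppp1r14a (chr7:29289070-29289319, plus strand): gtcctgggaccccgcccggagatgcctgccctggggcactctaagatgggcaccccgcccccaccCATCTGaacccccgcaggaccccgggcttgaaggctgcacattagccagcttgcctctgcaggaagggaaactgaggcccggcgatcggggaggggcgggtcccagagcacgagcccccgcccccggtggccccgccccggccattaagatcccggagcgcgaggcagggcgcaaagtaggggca
Ppp1r9b (chr11:94990962-94991211, plus strand): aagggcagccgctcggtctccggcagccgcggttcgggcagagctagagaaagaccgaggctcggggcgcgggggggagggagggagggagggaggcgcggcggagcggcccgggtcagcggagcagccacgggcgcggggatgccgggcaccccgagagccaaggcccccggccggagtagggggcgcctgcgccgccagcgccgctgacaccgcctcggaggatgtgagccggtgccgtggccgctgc
Ppp3cb (chr14:20546574-20546823, minus strand): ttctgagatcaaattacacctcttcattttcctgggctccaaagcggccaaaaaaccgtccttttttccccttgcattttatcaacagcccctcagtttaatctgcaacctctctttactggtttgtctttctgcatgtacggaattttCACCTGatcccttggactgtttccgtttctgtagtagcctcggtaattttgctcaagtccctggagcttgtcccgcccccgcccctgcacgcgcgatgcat
Ppp1r13l (chr7:19360966-19361215, plus strand): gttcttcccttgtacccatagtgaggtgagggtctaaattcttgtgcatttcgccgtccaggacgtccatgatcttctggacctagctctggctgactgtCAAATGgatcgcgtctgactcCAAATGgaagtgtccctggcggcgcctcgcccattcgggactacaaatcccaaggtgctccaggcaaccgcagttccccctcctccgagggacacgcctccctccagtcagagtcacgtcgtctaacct
Ppp1r14a holds 1 match, CATCTG, beginning 185 bases before the start, which is CAGATG read on the other strand. Ppp3cb holds CACCTG 101 bases before the start, Ppp1r13l holds CAAATG at 150 and at 129 bases, and Ppp1r9b holds none. RefSeq promoters were found for 50 of the 64 members, 60 starts in all. The pattern CANNTG, read on both strands, was in 31 of those 60 (51.7%) and in 66.2% of all 32851 promoters of the same length. Its special case CAGATG, read as CAGATG or CATCTG, was in 3 of 60 member promoters (5.0%) and 14.4% of all. CAGCTG, another special case, was in 10 of 60 member promoters (16.7%) and in 4271 of 32851 of all (13%). That difference is small and was not tested. Starts of one gene were counted separately, and the 10 include both starts of Ppp1r16b. Member promoters had a median of 17 CG dinucleotides and of 61.0% G or C, where the medians over all promoters were 6 and 52.4%, with no test made. Of the 23 promoters of members that rose 14 held CANNTG, as did 3 of 7 of members that fell and 13 of 28 of members that did not pass. The 3 among members that fell were that of Ppp1r13l and both starts of Ppp1r9a. A match is a stretch of letters and not a measured binding site.

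Of 11 catalytic subunits 6 rose and 0 fell, and their median log2 change was 0.22. Of 51 regulatory subunits with a p-value 19 rose and 6 fell, and the median over the 46 at the minimum level was 0.20. The medians of the catalytic and the regulatory subunits were thus close. The regulatory changes ranged from -0.71 to 2.31 and the catalytic ones, which are fewer, from -0.05 to 0.65. By class, the median log2 change was 0.17 for 28 PP1 members, 0.27 for 16 PP2A members and 0.40 for 4 PP3 members. PP1 had 10 rises and 5 falls among 32 members with a p-value, PP2A 9 rises and 1 fall among 16, and PP3 3 rises and 0 falls among 5. Beside these and the subgroup counts that follow stand the 19.1% of all genes called higher and 16.4% called lower, and in groups this small a single gene moves the share widely. No test of the difference between these classes was made.

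**Figure D1:**
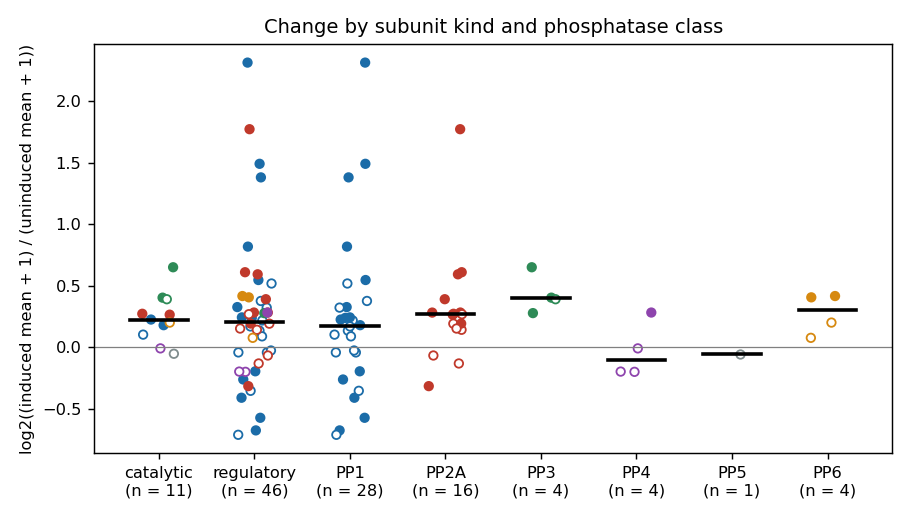
Log2 change of each member with a group mean of at least 10 (vertical axis, induced over uninduced with a pseudocount of 1), by subunit kind and by class; filled points passed the authors' test, colours mark the class, and bars are medians. The catalytic points lie between -0.05 and 0.65, while the regulatory points reach from -0.71 to 2.31.

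The PP1 catalytic subunits are near-identical enzymes from separate genes. In the authors' deposited table Ppp1ca, the alpha isoform, went from 3931 to 4449.6, 1.13-fold (adjusted p = 0.044). Ppp1cb, the beta isoform found in myosin phosphatase, rose 1.17-fold by the authors' deposited table, from 5119 to 5982 (adjusted p = 0.020). The gamma isoform gene Ppp1cc had means of 5891 and 6323 and did not pass (adjusted p = 0.29 by the authors' deposited table). All 3 ratios lay above 1, and none reached 1.2. Annotated exons of Ppp1ca overlap those of Rad9a on the opposite strand over 225 bases. Divided by the exon length of the coding transcripts in GENCODE M21, the means were 2668 and 3021 reads per kb for Ppp1ca, 2471 and 2652 for Ppp1cc, and 859 and 1003 for Ppp1cb. On that per-length scale the alpha isoform made up 44.5% of the PP1 catalytic level before and 45.2% after induction, the gamma isoform 41.2% and 39.7%, and the beta isoform 14.3% and 15.0%. By reads alone the shares were 26.3% and 26.6% for the alpha, 39.4% and 37.7% for the gamma and 34.3% and 35.7% for the beta isoform, so the order of these isoforms turns with the length correction. Under either measure each share moved by less than 2 percentage points.

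Both PP2A catalytic genes rose by about the same ratio. Ppp2ca went from 3607 to 4354, 1.21-fold (adjusted p = 0.0062), and Ppp2cb from 1834 to 2203, 1.20-fold (adjusted p = 0.0054), by the authors' deposited table. The alpha isoform's share of their summed level per kb was 28.9% before and 29.0% after. By reads alone its share was 66.3% and 66.4%, so the order turns here too, whereas the shares hardly moved under either measure. Annotated exons of Ppp2ca overlap 2985 bases of a gene on the opposite strand, 9430098F02Rik, and the strand setting of the counting is not given in the sources used here.

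Calcineurin had the largest ratio among the catalytic genes. In the authors' deposited table Ppp3ca, the A alpha isoform that is abundant in brain, rose 1.57-fold, from 407 to 639 (adjusted p = 9.0e-05). Ppp3cb, the A beta isoform, rose 1.32-fold from 1821 to 2407 (adjusted p = 1.1e-05), also by the authors' deposited table. The gamma isoform gene Ppp3cc, known from testis, had means of 83.8 and 110.1 and did not pass (adjusted p = 0.24 by the authors' deposited table). Per kb, Ppp3cb stood highest of the calcineurin A genes in both groups, with 381 and 503 reads per kb, followed by Ppp3ca with 85.0 and 134 and Ppp3cc with 41.3 and 54.3. The A alpha share of the calcineurin A level went from 16.8% to 19.3%. Ppp3r1, the calcineurin B subunit that binds calcium, rose 1.21-fold from 1567 to 1899 by the authors' deposited table (adjusted p = 0.0043). The testis form Ppp3r2 was listed at 0 and 1.43 (adjusted p = 0.76 by the authors' deposited table).

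The remaining catalytic genes did not pass. In the authors' deposited table the means were 1819 and 1807 for Ppp4c (adjusted p = 1), 1621 and 1562 for Ppp5c (adjusted p = 0.76), and 659 and 757 for Ppp6c (adjusted p = 0.15). PP4 acts at centrosomes and in DNA repair, PP5 carries its regulatory domain in the same chain as the catalytic one, and PP6 opposes the mitotic kinase Aurora A.

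**Figure D2:**
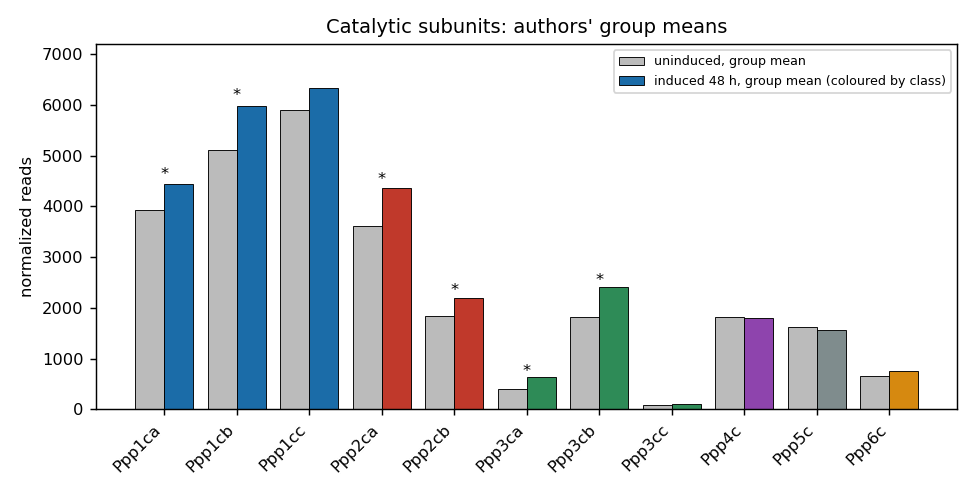
Authors' group means in normalized reads for the 11 catalytic genes, grey for uninduced and coloured by class for 48 h of induction; stars mark genes with an authors' adjusted p of at most 0.05. Heights of different genes are not corrected for length. The pairs differ by at most 1.57-fold, in Ppp3ca.

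PP2A scaffold subunits, on which the trimer is built, moved with the catalytic ones. Ppp2r1a went from 4467 to 5431 (adjusted p = 0.00060) and Ppp2r1b from 1626 to 1977 (adjusted p = 0.0041) by the authors' deposited table, 1.22-fold each. The core genes of PP2A, 2 catalytic and 2 scaffold, thus all rose by 1.20-fold to 1.22-fold. Exons of Ppp2r1b overlap those of Sik2 on the opposite strand over 1429 bases.

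The variable B subunits, which choose PP2A substrates, did not share one direction. Within the B55 group 1 of 4 rose and 1 fell. Ppp2r2b, B55 beta, a form of neurons, was listed at 5.79 uninduced and 22.2 induced, 3.84-fold by the authors' deposited table (adjusted p = 0.019). Both means are low, near the minimum level used here. Ppp2r2d, B55 delta, which is known for control of mitotic entry in Xenopus extracts, fell from 1949.9 to 1565, to 0.803 of its uninduced mean by the authors' deposited table (adjusted p = 0.0013). It was the single PP2A member that fell. Ppp2r2a, B55 alpha, had means of 1865 and 2129.8 and missed the threshold (adjusted p = 0.058 by the authors' deposited table). Ppp2r2c, the gamma form, had means of 273 and 301 (adjusted p = 0.59 by the authors' deposited table).

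Of the B56 group 2 of 5 rose and 0 fell. Ppp2r5b, B56 beta, rose 1.53-fold by the authors' deposited table, from 316 to 482 (adjusted p = 3.2e-05). Ppp2r5e, B56 epsilon, rose 1.31-fold from 892 to 1169 by the authors' deposited table (adjusted p = 0.00033). The alpha, gamma and delta forms did not pass. In the authors' deposited table they had means of 769 and 734 for Ppp2r5a (adjusted p = 0.74), 2789 and 2544 for Ppp2r5c (adjusted p = 0.23), and 2106 and 2339 for Ppp2r5d (adjusted p = 0.15). Ppp2r3a, a calcium-binding B'' subunit, rose 1.51-fold by the authors' deposited table, from 333 to 503 (adjusted p = 0.0011). Ppp2r3c, of the same group, had means of 628 and 757 (adjusted p = 0.052 by the authors' deposited table). Ppp2r4, the older symbol of the PP2A activator Ptpa, rose 1.14-fold from 2126 to 2429 (adjusted p = 0.049 by the authors' deposited table).

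Of 3 PP4 regulators 1 rose and of 3 PP6 regulators 2 rose, and 0 of either fell. Ppp4r2 rose from 2379.7 to 2893, 1.22-fold (adjusted p = 0.0016), whereas Ppp4r1 had means of 2121 and 1845 (adjusted p = 0.058) and Ppp4r4 of 214 and 186 (adjusted p = 0.80), all by the authors' deposited table. Ppp6r1 rose 1.32-fold from 1586 to 2101 (adjusted p = 1.3e-05) and Ppp6r2 1.34-fold from 327 to 437 (adjusted p = 0.010) by the authors' deposited table. Exons of Ppp6r1 and Ppp6r2 overlap opposite-strand genes over 360 and 212 bases. Ppp6r3, the third PP6 regulator, had means of 4314 and 4548 (adjusted p = 0.49 by the authors' deposited table).

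**Figure D3:**
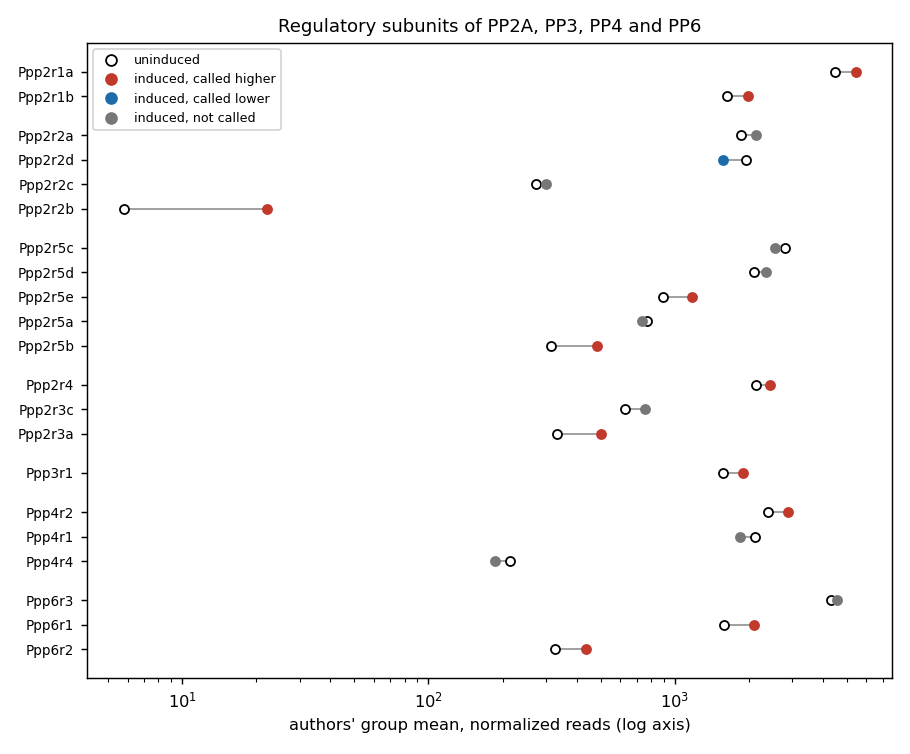
Authors' group means in normalized reads (log axis) for the 21 regulatory genes of PP2A, PP3, PP4 and PP6 whose higher mean reached 10; open circles are uninduced, filled circles induced, red called higher, blue called lower and grey not called. Ppp2r2d is the blue point, and Ppp2r2b has the longest line, from 5.79 to 22.2.

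PP1 regulatory genes held the largest changes in both directions, with 8 rises and 5 falls among 29 with a p-value. Of 9 PP1 inhibitors 2 rose and 0 fell, a share of rises near the 19.1% of all genes called higher. Ppp1r14a encodes CPI-17, which inhibits myosin phosphatase once protein kinase C has phosphorylated it and is best known from smooth muscle. It went from 79.6 to 399.9, 5.03-fold by the authors' deposited table (adjusted p = 2.4e-36), the largest ratio among the members that rose. Its relatives had lower ratios. Ppp1r14b rose 1.18-fold, from 1899 to 2239.8 (adjusted p = 0.014), while Ppp1r14c had means of 58.3 and 35.2 (adjusted p = 0.29) and Ppp1r14d of 8.33 and 4.99 (adjusted p = 0.70) by the authors' deposited table. Actc1, a muscle actin gene among the muscle markers, rose 2.65-fold by the authors' deposited table, while the other 5 muscle markers did not pass.

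Ppp1r1a and Ppp1r1b, whose products protein kinase A switches on, did not pass, nor did the other inhibitors that follow. Ppp1r1a, inhibitor-1, had means of 469 and 527 (adjusted p = 0.34 by the authors' deposited table). Ppp1r1b encodes DARPP-32, the dopamine-regulated inhibitor of striatal neurons, and was listed at 19.3 and 28.0 (adjusted p = 0.51 by the authors' deposited table). Ppp1r1c was listed at 1.00 uninduced and 0 induced. Ppp1r2, inhibitor-2, had means of 2589 and 2541 (adjusted p = 0.90 by the authors' deposited table), and RefSeq lists 8 pseudogenes under its name, which could share its reads. Ppp1r11, inhibitor-3, had means of 283 and 353 (adjusted p = 0.063 by the authors' deposited table).

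The spine scaffolds went in opposite directions. Ppp1r9b, spinophilin, which ties PP1 to actin in dendritic spines, rose 1.76-fold by the authors' deposited table, from 591 to 1042 (adjusted p = 1.9e-13). Ppp1r9a, its relative neurabin, fell from 2602 to 2271, to 0.873 of its uninduced mean by the authors' deposited table (adjusted p = 0.048).

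Glycogen-targeting subunits, which bring PP1 to glycogen, were low throughout, with summed means of 192 and 222 over 7 genes. Of these, 2 rose, both from means near 10. Ppp1r3c, known as PTG, was listed at 9.47 and 28.5, 3.00-fold by the authors' deposited table (adjusted p = 0.021). Ppp1r3d was listed at 10.3 and 28.3, 2.76-fold by the authors' deposited table (adjusted p = 0.035). The others lay at 102 and 79.7 for Ppp1r3f, 59.0 and 76.8 for Ppp1r3b, 7.79 and 5.85 for Ppp1r3e and 3.08 and 2.95 for Ppp1r3g in normalized reads, and did not pass.

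Both genes that direct PP1 to the translation factor eIF2alpha, and so end the integrated stress response, fell. Ppp1r15b, the constitutive form CReP, went from 4039 to 2712, to 0.672 of its uninduced mean by the authors' deposited table (adjusted p = 3.8e-12). Ppp1r15a, the stress-induced form GADD34, went from 472 to 355, to 0.751 of its uninduced mean (adjusted p = 0.0070 by the authors' deposited table). Among the falls of the family Ppp1r15b had the smallest adjusted p, and its exons overlap those of Gm26616 on the opposite strand over 640 bases. Ppp1r13l, or iASPP, an inhibitor of p53, fell to 0.624 of its uninduced mean by the authors' deposited table, from 275 to 171 (adjusted p = 0.00028). Its relative Ppp1r13b, or ASPP1, which promotes p53 function, had means of 242 and 235 (adjusted p = 0.96 by the authors' deposited table).

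Members of the myosin phosphatase targeting family were divided, with 1 rise and 1 fall among 5. Ppp1r12a, MYPT1, the main myosin phosphatase subunit, had means of 1926 and 1870.2 and Ppp1r12b, its relative of heart and brain, of 96.9 and 113, neither passing. Ppp1r12c fell to 0.833 of its uninduced mean by the authors' deposited table, from 1099.9 to 916 (adjusted p = 0.021). Ppp1r16b, also called TIMAP and known from endothelium, rose 1.46-fold by the authors' deposited table, from 169.5 to 248 (adjusted p = 0.0074), and Ppp1r16a had means of 453 and 497. Of the nuclear regulators, Ppp1r10, or PNUTS, which takes PP1 to RNA polymerase II, rose 1.25-fold from 1637 to 2053 (adjusted p = 0.00065 by the authors' deposited table). Ppp1r7, or SDS22, rose 1.18-fold from 1043 to 1234 (adjusted p = 0.031 by the authors' deposited table). Ppp1r8, or NIPP1, had means of 1374 and 1460.1 and did not pass.

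**Figure D4:**
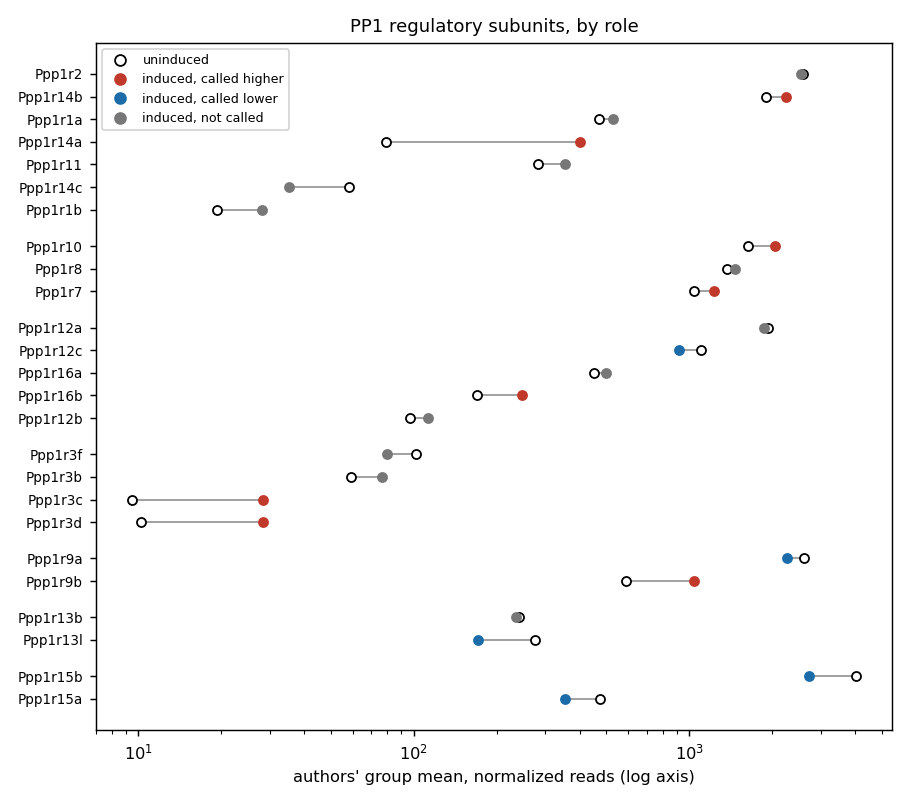
Authors' group means in normalized reads (log axis) for the 25 PP1 regulatory genes whose higher mean reached 10, in blocks by role. The blocks are inhibitors, nuclear, myosin phosphatase targeting family, glycogen-targeting, spine, ASPP and eIF2alpha-targeting. Open circles are uninduced and filled circles induced, red called higher, blue called lower, grey not called. Ppp1r14a has the longest line, from 79.6 to 399.9, and the eIF2alpha-targeting pair both lie lower after induction.

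Partners without a Ppp symbol were described from 6 lists, whose counts stand beside the same 19.1% of all genes called higher and 16.4% lower. Of 13 calcineurin substrates, inhibitors and anchors 6 rose and 3 fell, and the list's median log2 change was 0.29. Calm3, a gene for the calcium sensor of calcineurin, rose 1.27-fold from 2902 to 3674 (adjusted p = 0.00039 by the authors' deposited table). Fkbp1a, the immunophilin through which the drug FK506 blocks calcineurin, rose 1.30-fold (adjusted p = 4.0e-06 by the authors' deposited table). Rcan2, a calcineurin regulator, rose 2.36-fold from 51.4 to 121 (adjusted p = 2.4e-05 by the authors' deposited table). Its relative Rcan3 fell to 0.786 of its uninduced mean (adjusted p = 0.0091 by the authors' deposited table), while Rcan1 did not pass. Cabin1, of the same list, fell to 0.862 of its uninduced mean (adjusted p = 0.043 by the authors' deposited table). The NFAT genes were divided: Nfatc1 rose from 39.4 to 87.4, Nfatc2 fell from 149 to 96.5, and Nfatc3 and Nfatc4 did not pass.

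Of 17 PP2A partners 5 rose and 3 fell, for a median log2 change of 0.14. In the authors' deposited table Ppme1, which removes the methyl group from the PP2A catalytic subunit, rose 1.44-fold (adjusted p = 3.8e-06) and the striatin gene Strn3, a further type of B subunit, 1.36-fold (adjusted p = 5.0e-07). Ankle2, which acts with PP2A in nuclear envelope reassembly, fell to 0.583 of its uninduced mean (adjusted p = 4.1e-20 by the authors' deposited table). C330027C09Rik, the older symbol of the PP2A inhibitor CIP2A, fell to 0.763 of its uninduced mean (adjusted p = 7.5e-05 by the authors' deposited table).

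PP1 partners had wider changes, with 6 rises and 5 falls among 17 genes, their median being 0.14 on the log2 scale. Gsbs, the older symbol of Ppp1r17, a phosphatase inhibitor known from cerebellar Purkinje cells, was listed at 0 uninduced and 123 induced (adjusted p = 1.8e-36 by the authors' deposited table). Phactr2, of a family that binds PP1 and actin, rose 3.48-fold by the authors' deposited table, from 257 to 894 (adjusted p = 9.2e-21). Lmtk2, a kinase that binds PP1, fell to 0.540 (adjusted p = 7.8e-28) and Cdca2, which loads PP1 onto chromatin at the end of mitosis, to 0.646 of its uninduced mean (adjusted p = 3.4e-13) by the authors' deposited table.

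Of 5 PP4 and PP6 partners Smek2 alone rose, 1.27-fold by the authors' deposited table (adjusted p = 0.00028), and their median log2 change was 0.05. Protein kinase A subunits and anchors, whose kinase opposes PP1 and activates some of its inhibitors, gave 5 rises and 2 falls among 10 genes. Their median log2 change was 0.48. The regulatory subunit gene Prkar1a rose 1.73-fold (adjusted p = 4.7e-13 by the authors' deposited table). The anchor Akap6 rose 11.9-fold by the authors' deposited table (adjusted p = 4.6e-06), from 12.2, near the minimum level used here, to 145. The anchors Akap1 and Akap12 fell to 0.536 and 0.696 of their uninduced means (adjusted p = 3.7e-28 and 3.0e-13 by the authors' deposited table). The metal-dependent phosphatases of the PPM family, which are unrelated in sequence to the Ppp enzymes, gave 4 rises and 4 falls among 16 genes, their median log2 change being 0.03. Ppm1e, which acts on the kinases PAK and CaMK, rose 2.44-fold (adjusted p = 7.2e-15) and Phlpp1, which acts on the kinase Akt, went from 482 to 723 (adjusted p = 2.6e-05) by the authors' deposited table. Ppm1j fell to 0.430 (adjusted p = 5.4e-10) and the mitochondrial Pdp2 to 0.753 of its uninduced mean (adjusted p = 0.0079) by the authors' deposited table.

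**Figure D5:**
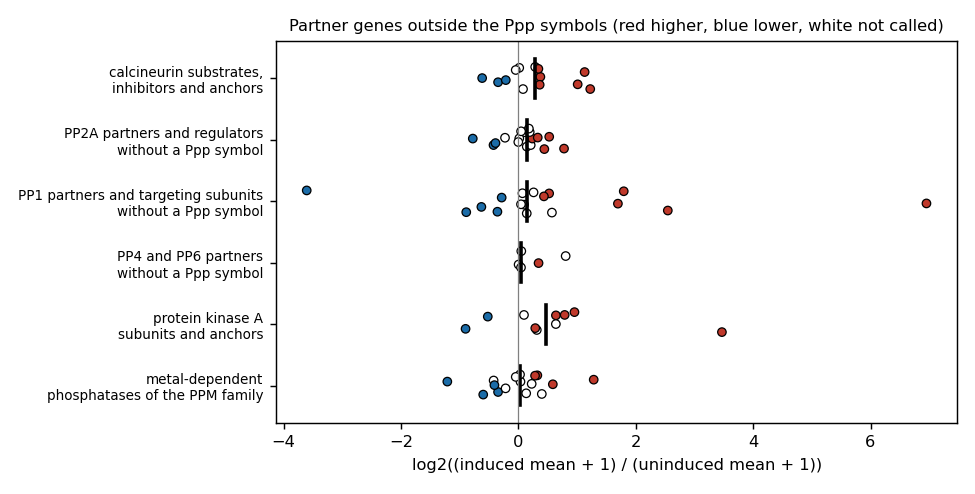
Log2 change (horizontal axis, pseudocount of 1) of the genes in 6 lists of phosphatase partners and of related enzymes; red points were called higher, blue lower and white not called, and bars are medians. The medians lie between 0.03 for the PPM family and 0.48 for protein kinase A, and the point at 6.95 is Gsbs.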

How the data were processed

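RNA was sequenced from 2 uninduced and 2 induced libraries, grouped by sample title; the 2 NeuroD1 immunoprecipitations and 1 input were not analysed here. Per the submitters' processing notes DESeq, HTSeq 0.5.4p1, TopHat2 2.0.8, FastQC 2.6.14 and SAMtools 0.1.19 were named, with the build mm9; their roles and settings are not given in the sources used here. The authors' deposited table gives, per gene, 2 group means read here as a normalized signal in reads, their ratio as fold change, its log2, and p-values with adjusted p-values. The ratio equalled that of the means, and the adjusted p-values a Benjamini-Hochberg adjustment over 18283 genes, in 100% of genes (for the ratio, those with both means above 0) at a relative tolerance of 1e-06. A second table has 4 columns, 1 per library, under names that no label explains; they were left unused, and neither depth nor spread is given.

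The 64 members were found by symbol. Log2 changes use a pseudocount of 1, which understates changes of low genes, and medians cover members with a group mean of at least 10. The members, gene lists and tests were chosen with earlier results of these data known. Named with values were the catalytic, PP2A and PP3 genes, other members past 1.5-fold or the threshold, and up to 4 called genes per partner list; others named were chosen after their values were seen, and 1 gene that the rule takes is not reported here. Ppp2r4, Gsbs and C330027C09Rik were matched to current names through RefSeq synonyms. Lengths and overlaps come from GENCODE M21 and promoters from RefSeq, both of a later build than mm9, so the annotation used for counting may differ. The adjustment was tested on simulated p-values, and the symbol rule on a few example symbols. Scripts ran in Python 3.11.15 with scipy 1.17.1, numpy 2.4.6, matplotlib 3.10.9 and pandas 2.3.3.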

Additional observations from a re-analysis of the deposited data

How the results depend on the processing

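The counts of 25 members higher and 6 lower became 16 and 4 at an adjusted p of 0.01, and 4 and 0 with a minimum change of 2-fold between the means. Adjusted over genes with a mean of at least 10 they were 27 and 7, and without members that share exons with another gene or have named pseudogenes, an alternative chosen after seeing the data, 19 and 4. The median log2 changes of the members, of catalytic and regulatory subunits and of PP1, PP2A and PP3 each moved by less than 0.1, with the same sign, under pseudocounts of 0.5 and 5, no minimum mean, a minimum of 50 and equal totals. Of 44 members followed singly, among them the 25 called higher and the 6 called lower, 11 lost the call at 0.01. Of the 44, 0 changed direction, which a pseudocount or threshold could not alter because direction comes from the same 2 group means. Ppp2r2a and Ppp2r3c gained a call when the authors' DESeq p-values were adjusted over genes at that minimum mean (adjusted p = 0.047 and 0.042), as did Ppp4r1, the added fall. No paired analysis was possible because the per-library columns carry no sample label or replicate number; for that reason limma, fits without single libraries and a count model were also not run.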

Other observations

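Several phosphatase subunits of the current nomenclature stand in the table under older symbols, which the symbol rule did not take. RefSeq synonyms matched 13 such genes, of which 4 rose, 0 fell, 7 did not pass and 2 were listed at 0 in both groups. Of all genes with a p-value 19.1% were called higher and 16.4% lower, and in so small a group a single gene moves the share widely. Gsbs, Smek1 and Smek2 were also counted in the partner lists above. Beside Gsbs (Ppp1r17) and Smek2 (Ppp4r3b), the genes that rose were 2310014H01Rik (Ppp1r18, phostensin, an actin-binding PP1 subunit), from 647 to 799.6 (adjusted p = 0.018 by the authors' deposited table), and Klraq1 (Ppp1r21), from 440.1 to 555 (adjusted p = 0.022 by the authors' deposited table). Smek1 (Ppp4r3a) had means of 3164 and 3171 and Lrrc68 (Ppp1r37) of 662 and 656, and neither passed. The symbol left out for its ending, Ppp4r1l-ps, went from 225 to 306, 1.36-fold in the authors' deposited table (adjusted p = 0.018). The choice of these genes followed a look at their values.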
